A study of Mus musculus with 127 samples.

Results

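Trp53, which encodes the transcription factor p53, was measured together with 9 genes that p53 is known to activate directly, namely Cdkn1a, Mdm2, Bax, Ccng1, Bbc3, Pmaip1, Zmat3, Sesn2 and Phlda3. They were chosen by name and make up 10 of the 54838 gene rows. All 10 passed the filter on low counts in every comparison.

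In unstressed cells p53 protein is kept low because MDM2, a ubiquitin ligase that p53 itself switches on, marks it for degradation. DNA damage and other stress stabilise the protein, so p53 activity is read from the RNA of its targets rather than from its own RNA. CHD8 is a chromatin remodeller that binds p53 and has been described as holding back p53-driven transcription and cell death in development. CHD8 is also a high-confidence autism gene. The question put to these genes was whether lowering Chd8 in adult mouse cortex moved the p53 programme.

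The germline line carried a 5 bp deletion in 1 Chd8 allele (HET) and was compared with wild-type mice (WT). The conditional line carried floxed Chd8 alleles and a Camk2a-Cre transgene, which acts in excitatory forebrain neurons, so that other cell types keep Chd8. In its nuclear and synaptic groups WT had Cre and no floxed allele, HET had Cre and 1 floxed allele, and HOM had Cre with both alleles floxed. In its whole cortex groups, called flox and floxCre after the sample titles, all mice had 1 floxed allele and only floxCre had Cre. Mice of both sexes were about 60 days old. Poly(A) RNA was sequenced from whole cortex and from synaptic, nuclear and cytosolic extracts prepared with commercial reagents. Germline libraries numbered 15 WT and 16 HET for cortex, 12 and 9 for nuclear, 11 and 7 for synaptic, and 5 and 7 for cytosolic RNA. Conditional libraries numbered 8 flox and 6 floxCre for cortex, 4 WT, 6 HET and 3 HOM for nuclear, and 4 WT, 5 HET and 5 HOM for synaptic RNA.

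Total counts ran from 19 to 56.6 M (1 M is 1000000 counts) per library, except in conditional cortex, where they ran from 98.1 to 134.6 M. Levels are given as counts per M counts in the library (CPM), and as CPM per kilobase of exon where genes are compared with each other. The extracts were enriched, not pure: the 17 endothelial and mural markers summed to 1647 to 4094 CPM in germline nuclear WT libraries and to 391 to 727 CPM in whole cortex. All 10 excitatory neuron markers were present in every group. The germline synaptic WT libraries male 1 and male 2 stood apart. Malat1, a nuclear-retained RNA, was at 857 and 1221 CPM there against 55.7 to 184 CPM in the other 9 synaptic WT libraries. An animal labelled HET in the conditional line (male replicate 1) had no Cre count in either fraction. Values without these animals are given beside the results on Chd8 and the 10 genes. In bulk RNA, fewer cells of a type and less RNA per cell cannot be told apart.

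Chd8 itself was read first, since it checks the labels. In germline cortex WT libraries had 93.2 ± 13.8 CPM and HET libraries 62 ± 11.9 CPM (mean ± SD of 15 and 16), a log2 difference of −0.58 (SE 0.0755, edgeR adjusted p = 7.89e-05). Among the 9 genotype comparisons this was the one in which Chd8 passed the adjusted threshold of 0.05, and in the other 8 its edgeR adjusted p ran from 0.308 to 0.995. The p-values that follow are from permutation tests of Chd8 alone. In germline cytosolic libraries it was 86.4 ± 5.07 against 64.5 ± 7.31 CPM (n = 5 and 7, two-sided exact permutation p = 0.00253). In germline synaptic libraries the difference on the log2 CPM scale was −0.92 (exact permutation p = 0.000126), and WT males 1 and 2 had 144 and 148 CPM. Without these males it was −0.65 (exact permutation p = 0.00035). In germline nuclear libraries no difference was seen, with 117 ± 10.7 CPM in WT and 117 ± 17 CPM in the libraries labelled HET (exact permutation p = 0.904). In the conditional line the log2 CPM difference was −0.49 in cortex (exact permutation p = 0.0313) and −0.60 in synaptic HOM (exact permutation p = 0.0476). It was −0.56 in nuclear HOM (exact permutation p = 0.114), −0.11 in nuclear HET (exact permutation p = 0.295) and −0.25 in synaptic HET (exact permutation p = 0.159). With 3 HOM and 4 WT libraries the nuclear HOM test could not give a p under 0.05, whatever the values. Without the HET animal that had no Cre count the HET values were −0.08 (exact permutation p = 0.444) and −0.34 (exact permutation p = 0.0571).

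The promoters of these genes were read first for the DNA element that p53 recognises. p53 binds DNA as a tetramer through pairs of a 10-base element, so the windows from 250 bases before to 50 bases after each RefSeq start site (build GRCm38.p6) were searched for that element by its consensus, which is its own reverse complement. A window was found for 8 of the genes, 11 windows in all, and 5 of the 8 held at least 1 match. Among all windows 2745 of 32851 (8.36%) held one, and 9.55% of the 27025 genes did. Each match is printed 5′ to 3′ on the gene's strand with 10 bases on each side and the match in capitals. A match is a description of the letters, and binding was not measured.
Trp53: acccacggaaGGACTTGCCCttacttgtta
Mdm2: agtcggatagGAACTTGCCTagcgaccatt
Ccng1: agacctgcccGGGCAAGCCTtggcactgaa
Cdkn1a, first match: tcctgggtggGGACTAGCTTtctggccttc
Cdkn1a, second match: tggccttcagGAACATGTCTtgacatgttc
Bax: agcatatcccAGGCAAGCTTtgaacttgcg
The 30-base stretches printed lie at chr11:69580274-69580303 (Trp53, plus strand), chr10:117710925-117710954 (Mdm2, minus strand), chr11:40755452-40755481 (Ccng1, minus strand), chr17:29090896-29090925 and chr17:29090918-29090947 (Cdkn1a, plus strand) and chr7:45467080-45467109 (Bax, minus strand). The matches inside them began 75 bases upstream of a RefSeq start in Trp53, 186 in Mdm2, 185 in Ccng1, 73 and 51 in Cdkn1a and 201 in Bax. All 6 lay outside the gene bodies as GENCODE M21 draws them. No match was found in the windows of Bbc3, Sesn2 and Phlda3 with these letters. Windows for Pmaip1 and Zmat3 were not analysed here.

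In whole cortex the p53 targets were expressed at rest, at levels that differed widely between genes. Per kilobase of exon, the highest in germline WT cortex was Ccng1 (cyclin G1, which feeds back on MDM2) at 24.4 ± 1.23 CPM per kb (SD, n = 15). Phlda3, which restrains AKT signalling, followed at 15.9 ± 2.86 and Bax, a pore-forming protein of the mitochondrial death pathway, at 13.9 ± 2.26 CPM per kb. Zmat3, an RNA-binding zinc finger protein, had 12.5 ± 0.963, Mdm2 had 9.39 ± 0.847 and Cdkn1a, the cell cycle inhibitor p21, had 7.45 ± 2.32 CPM per kb. Trp53 itself had 5.38 ± 0.694, Sesn2, a stress-induced inhibitor of mTORC1, had 4.42 ± 0.482, and Bbc3, which encodes the death activator PUMA, had 4.17 ± 0.842 CPM per kb. Pmaip1, which encodes the related NOXA, was lowest at 0.89 ± 0.241 CPM per kb. Of the neighbours in this order, the means of Phlda3, Bax and Zmat3 lay within 1 SD of the next, as did those of Mdm2 and Cdkn1a, of Cdkn1a and Trp53, and of Sesn2 and Bbc3.

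**Figure D1:**
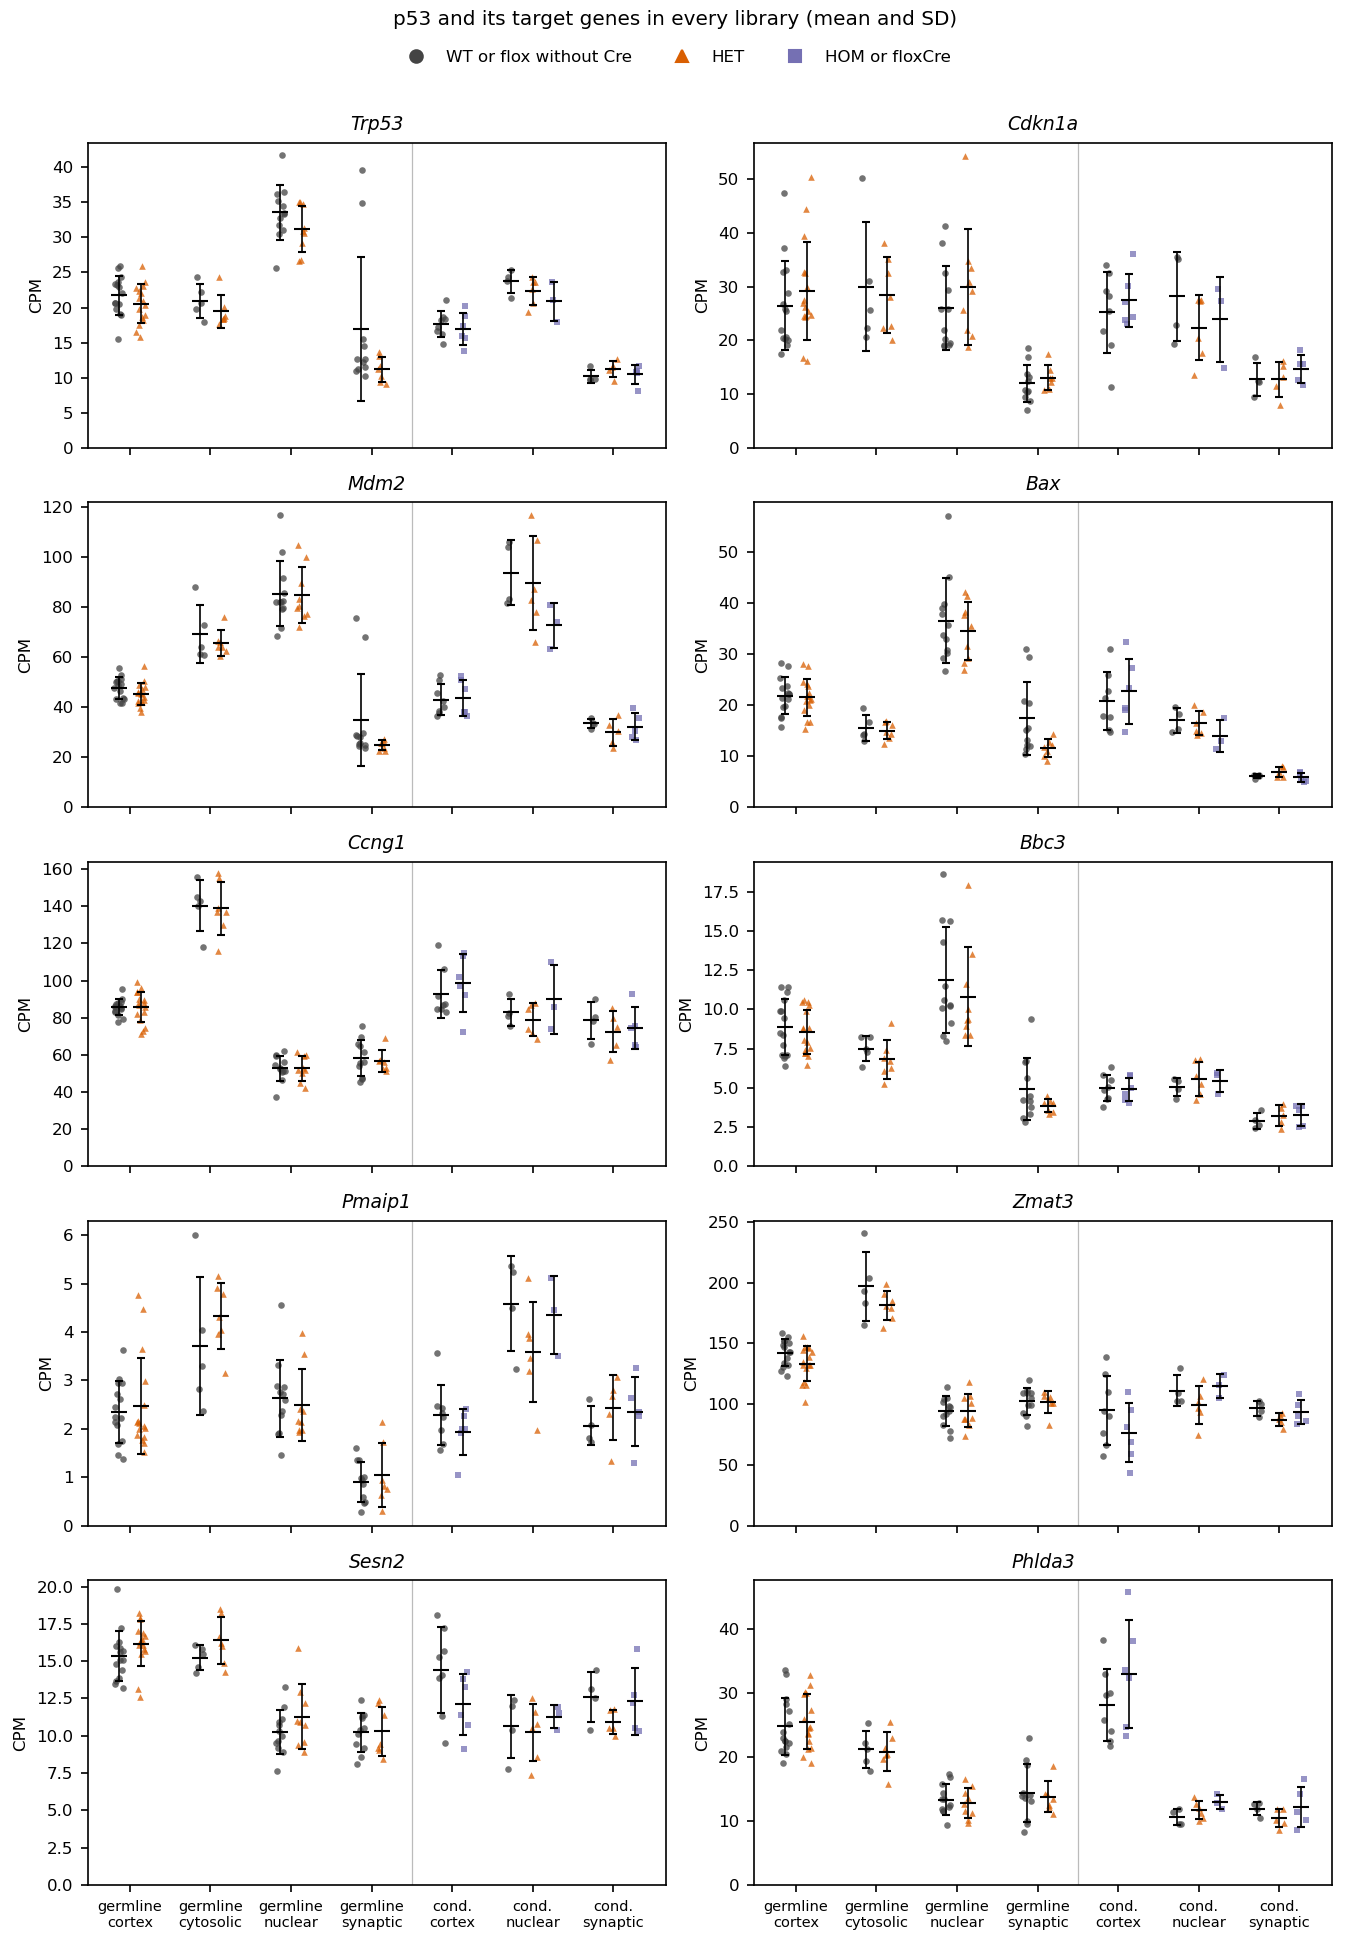
Levels of the 10 genes, 1 panel each, with CPM from 0 upwards on the vertical axis and the tissue fractions of the 2 lines along the horizontal axis; each point is 1 library, marked by genotype, and the bars are the mean and SD of its group. Genotypes overlap within a fraction, except Mdm2 in conditional nuclear WT and HOM libraries, and the 2 high germline synaptic WT points of Trp53 (39.6 and 34.9 CPM) and Mdm2 (68.0 and 75.8 CPM) are males 1 and 2.

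The genes also differed in how much they varied between mice. Among germline WT cortex libraries the coefficient of variation was 5.04% for Ccng1, 7.73% for Zmat3 and 9.02% for Mdm2, but 27.1% for Pmaip1 and 31.2% for Cdkn1a. Sesn2 (10.9%), Trp53 (12.9%), Bax (16.3%), Phlda3 (18%) and Bbc3 (20.2%) lay between. In HET Sesn2 (9.37%) and Ccng1 (9.59%) varied least and Cdkn1a (31.3%) and Pmaip1 (39.9%) most. Pmaip1 rested on 28 to 134 counts per cortex library and the other 9 genes on at least 133, so counting error weighs more on Pmaip1 than on Cdkn1a, which had 437 to 1246 counts.

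The 10 genes did not vary as 1 group across mice. Over the 31 germline cortex libraries, after sex, batch and genotype were removed, the highest correlations were Bax with Trp53 (Pearson r = 0.56), Zmat3 with Pmaip1 (r = 0.55), Mdm2 with Trp53 (r = 0.53) and Pmaip1 with Ccng1 (r = 0.52). The lowest were Zmat3 with Bax (r = −0.68), Pmaip1 with Cdkn1a (r = −0.65) and Zmat3 with Trp53 (r = −0.56). These are descriptions over libraries that share batches and depth. Cdkn1a ran most closely with Egr3 (r = 0.88), Rnf39 (0.84), Nptx2 (0.84), Ptpn1 (0.82) and Pim1 (0.81) among 12495 genes, all higher than its correlation with any other of the 10. Egr3 is an immediate early transcription factor and Nptx2 a secreted synaptic pentraxin, both known to respond to neuronal activity. The part of neuronal activity in the Cdkn1a values was not tested. Ccng1 ran most closely with Parva (r = 0.77), Smim10l1 (0.77), Osbpl1a (0.77), Glrb (0.76) and Trim37 (0.75).

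**Figure D2:**
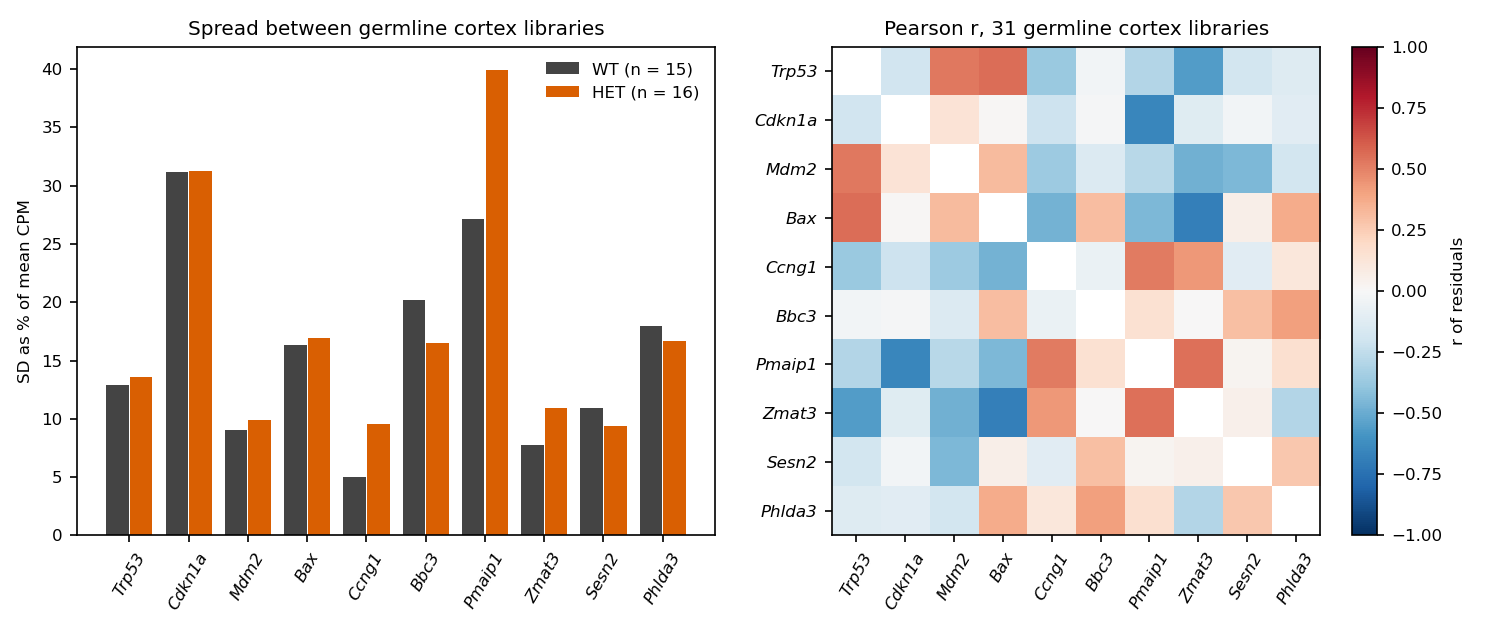
Left, the SD as a percent of the mean CPM of each gene over the 15 WT and 16 HET germline cortex libraries (bars from 0); right, a heatmap of Pearson r between the genes over all 31 libraries after sex, batch and genotype were removed, with the diagonal blank. Cdkn1a and Pmaip1 vary most, and the heatmap holds both signs, from −0.68 to 0.56.

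No change of these genes was detected in germline cortex with 1 Chd8 allele mutated. None of the 10 was called at an adjusted p of 0.05 (edgeR quasi-likelihood F test with Benjamini-Hochberg adjustment), where 0.334% of the 17074 genes tested were called. None had an unadjusted p under 0.05 either, against 9.25% of genes. Their log2 differences, HET minus WT, ran from −0.085 to 0.123 with a median of −0.008, beside −0.001 for all genes, and the lowest adjusted p was 0.681.

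Trp53 had a lowest, median and highest level of 15.5, 22 and 25.9 CPM in WT and of 15.8, 20.7 and 25.9 CPM in HET. The ranges nearly coincided, and the log2 difference was −0.07 (95% interval −0.195 to 0.047). Mdm2 had 41.5, 48.9 and 55.5 CPM in WT and 38, 45.4 and 56.5 CPM in HET, a log2 difference of −0.07. Mdm2 thus shifted no more than Trp53, and the WT range lay inside the HET range. Ccng1 had 77.9, 85.9 and 95.3 CPM in WT and 71.5, 87.1 and 99.2 CPM in HET, and its log2 difference of 0.01 had the interval −0.089 to 0.112.

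Cdkn1a, the most used readout of p53 activity, had 17.4, 25.4 and 47.4 CPM in WT and 16.2, 26.6 and 50.5 CPM in HET. Its log2 difference of 0.12 had an interval of −0.151 to 0.397, so a modest rise or fall could not be detected in a gene that varied this much. The death genes were as close. Bax was 21.9 ± 3.56 CPM in WT and 21.5 ± 3.63 CPM in HET, Bbc3 was 8.87 ± 1.79 and 8.58 ± 1.42, and Pmaip1 was 2.35 ± 0.639 and 2.47 ± 0.987 (SD, n = 15 and 16). For Pmaip1 the interval of the log2 difference was −0.235 to 0.431, which is wide because its counts are few. Zmat3 was 142 ± 11 and 133 ± 14.5 CPM, Sesn2 was 15.4 ± 1.68 and 16.2 ± 1.51, and Phlda3 was 24.8 ± 4.45 and 25.5 ± 4.26 CPM.

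The germline cortex libraries came in 2 labelled batches, and the small differences were not the same in both. In the batch labelled CHD80456 (7 WT, 8 HET) the log2 CPM difference was 0.23 for Cdkn1a, 0.01 for Trp53, −0.02 for Mdm2 and −0.01 for Sesn2. In the batch labelled CHD807 (8 WT, 8 HET) the same genes gave 0.04, −0.17, −0.13 and 0.15. Fitted alone, neither batch called any of the 10.

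No member was called in the germline extracts either. In nuclear libraries the log2 differences of the 10 genes ran from −0.108 to 0.163 and none was called, beside 0.0151% of 19912 genes (0.00502% higher and 0.01% lower); none had an unadjusted p under 0.05, against 7.38% of genes. Cell type markers differed between these nuclear groups: 15 of 17 endothelial and mural markers had an unadjusted p under 0.05. Of the 17, 0 had a higher fitted level in HET, and their median log2 difference was −0.408. They summed to 1647 to 4094 CPM in WT and to 1488 to 2895 CPM in HET. Their part in the values of the 10 genes was not tested. Chd8 RNA itself did not differ between these nuclear groups, though it was lower in the synaptic HET libraries, some of them from the same animals. In cytosolic libraries, where Chd8 was lower in HET by the permutation test, the log2 differences of the 10 genes ran from −0.135 to 0.294 (Pmaip1). None was called, beside 0% of 18454 genes, nor did any have an unadjusted p under 0.05, against 3.28% of genes. Cytosolic Trp53 was 19.8, 20.7, 24.3, 17.9 and 22.2 CPM in the 5 WT libraries and 17.6, 18.5 and 24.4 CPM at the lowest, median and highest of the 7 HET libraries. The HET library at 24.4 CPM was the only one of its group above 20.1 CPM, and the groups overlapped. Cytosolic Mdm2 overlapped too, with 61.1, 73, 88, 60.8 and 64 CPM in WT and 60.3, 64.3 and 76.2 CPM in HET.

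In germline synaptic libraries none of the 10 was called, beside 0% of 17178 genes. Bax came nearest. Over 11 WT libraries it had a lowest, median and highest level of 10.5, 15.1 and 30.9 CPM and over 7 HET libraries 8.98, 11.8 and 14.3 CPM. The WT maximum was one of the males that stood apart. Without males 1 and 2 the WT libraries held 10.5, 13.1 and 20.8 CPM, which still overlapped HET. The log2 difference was −0.26 (SE 0.112, unadjusted p = 0.0351, edgeR adjusted p = 0.417). Without these males it was −0.23 (adjusted p = 0.208). An unadjusted p under 0.05 was reached by 11% of genes in this comparison. The fit used 3 batch groups, merged from the batch labels, which held 4 WT and 1 HET, 3 WT and 5 HET, and 4 WT and 1 HET libraries. Genotype and batch group were thus partly confounded. Without the males the 10 log2 differences ran from −0.230 to 0.038. Other RNAs differed between these groups too: only 1 of 12 nuclear-retained RNAs and 1 of 17 endothelial and mural markers had a higher fitted level in HET, with median log2 differences of −0.807 and −0.4. The nuclear-retained RNAs summed to 1422 to 33476 CPM in WT, to 1422 to 3657 CPM in WT without males 1 and 2, and to 801 to 2194 CPM in HET. The endothelial and mural markers summed to 104 to 981 CPM in WT, to 104 to 157 CPM without these males, and to 99.6 to 165 CPM in HET. Their part in the Bax and Chd8 values was not tested.

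**Figure D3:**
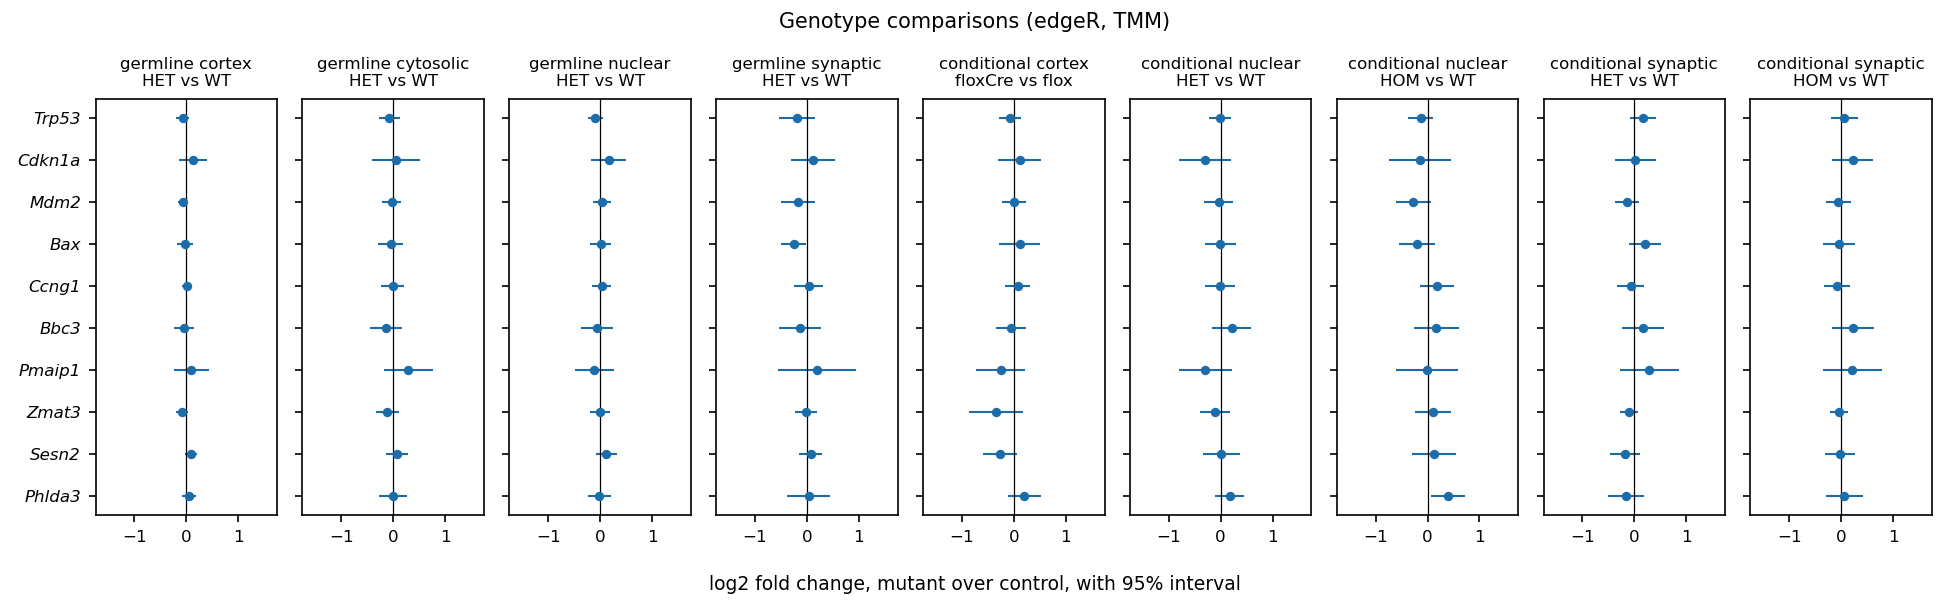
Log2 fold change, mutant over control, of the 10 genes in each of the 9 genotype comparisons; points are the edgeR values and lines their 95% intervals. All but 2 of the 90 intervals cross 0 (Bax in germline synaptic and Phlda3 in conditional nuclear HOM libraries), and no point passes the adjusted threshold of 0.05.

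No change of the 10 genes was detected in the conditional line either. In conditional cortex none of the 10 was called, beside 0% of 21798 genes, and none had an unadjusted p under 0.05, against 3.08% of genes. Zmat3 had the most negative log2 difference, −0.34 (95% interval −0.868 to 0.187, edgeR adjusted p = 0.882). Its lowest, median and highest levels were 57.5, 92.4 and 139 CPM in flox and 43.7, 75.4 and 110.0 CPM in floxCre. Zmat3 was far more scattered in this set than in germline cortex, and the 2 groups overlapped over most of their range. Sesn2 was 14.4 ± 2.88 CPM in flox and 12.1 ± 2.01 CPM in floxCre, a log2 difference of −0.26 (interval −0.593 to 0.066). Cdkn1a was 25.2 ± 7.53 and 27.4 ± 4.98 CPM, Mdm2 43.1 ± 6.16 and 43.8 ± 7.19 CPM, and Trp53 17.6 ± 1.87 and 16.9 ± 2.3 CPM (SD, n = 8 and 6).

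The HET and HOM groups of the conditional fractions were each compared with the same WT libraries, so their differences share an error. By the permutation tests above, Chd8 itself was lower in synaptic HOM. That group includes animal 91, whose nuclear library is labelled HET, and no permutation test without this animal is given. Chd8 was not detectably lower in nuclear HET or synaptic HET, so those comparisons do not establish a loss of Chd8. In nuclear HOM the permutation test cannot decide, since 3 HOM and 4 WT libraries are too few for a p under 0.05. The edgeR fit gave Chd8 a log2 difference of −0.469 there (interval −0.813 to −0.126, unadjusted p = 0.0104, edgeR adjusted p = 0.426). It was not called. With 1 floxed allele the log2 differences of the 10 genes ran from −0.303 to 0.214 in nuclear and from −0.186 to 0.286 in synaptic RNA. None of the 10 was called in either, beside 0% of 21133 and 0% of 17505 genes. Without the HET animal that had no Cre count they ran from −0.507 (Cdkn1a) to 0.186 in nuclear and from −0.201 to 0.288 in synaptic RNA, with none called. Nuclear Cdkn1a then had an unadjusted p of 0.0532 (edgeR adjusted p = 1). With both alleles floxed they ran from −0.275 to 0.39 in nuclear and from −0.078 to 0.222 in synaptic RNA, and again none was called, beside 0% of genes in each. In synaptic RNA none of the 10 had an unadjusted p under 0.05 in HET or HOM, where 4.37% and 4.96% of genes did, nor in nuclear HET, where 4.45% did. Trp53 in nuclear RNA was 25.4, 24.3, 21.4 and 23.8 CPM in WT, 20.9 ± 2.79 CPM in the 3 HOM libraries and 22.4 ± 2.03 CPM in the 6 HET libraries (mean ± SD). The HOM values lay from 18 to 23.6 CPM and overlapped WT.

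Phlda3 and Mdm2 were the genes that moved most in nuclear HOM. Phlda3 was 9.56 and 9.58 CPM in WT males, 11.4 and 11.9 CPM in WT females, 12.8 and 11.9 CPM in HOM males and 14.2 CPM in the HOM female. Over both sexes the WT and HOM ranges overlapped at 11.9 CPM. The fit, which has a term for sex, gave a log2 difference of 0.39 (SE 0.153, unadjusted p = 0.0212, edgeR adjusted p = 0.426). In this comparison 11.6% of genes had an unadjusted p under 0.05. In synaptic RNA of the same genotype the Phlda3 difference was 0.06 (SE 0.168). Mdm2 was 83.5, 106, 81.8 and 104 CPM in WT and 81, 74.1 and 63.3 CPM in HOM. It was the only one of the 10 whose WT and HOM values did not overlap, though by a narrow margin, and 9.58% of all genes had that property. Its log2 difference was −0.27 (SE 0.158, unadjusted p = 0.0995, edgeR adjusted p = 0.483). Cell type markers moved with these libraries: 13 of 17 endothelial and mural markers had an unadjusted p under 0.05 in nuclear HOM, all 17 had a lower fitted level, and their median log2 difference was −0.894. They summed to 1027 to 2587 CPM in WT and to 612 to 1534 CPM in HOM, with no marker at 0 in all libraries of any group. Of 12 nuclear-retained RNAs 6 had an unadjusted p under 0.05, 1 had a higher fitted level, and the median was −0.516. They summed to 20856 to 34268 CPM in WT and to 17311 to 26421 CPM in HOM, and Malat1 had a median of 2926 CPM in WT and 869 CPM in HOM. All 8 interneuron markers (median 0.37), 9 of 10 excitatory neuron markers (0.278), 9 of 10 microglial markers (0.222) and 10 of 12 oligodendrocyte and myelin markers (0.27) had a higher fitted level. The part of these RNAs and cells in the Phlda3 and Mdm2 values was not tested.

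In all, 90 tests were made of the 10 genes over 9 genotype comparisons, and 0 were called. Of these, 2 had an unadjusted p under 0.05, Bax in germline synaptic and Phlda3 in conditional nuclear HOM libraries, and they differ in sign. DESeq2 called none of the 10 in any of the 9 comparisons.

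The rest of the pathway was read from lists of 52 further p53 targets and 37 regulators of p53. None of their genes was called in any genotype comparison. In germline cortex 5 of 50 further targets and 2 of 36 regulators tested had an unadjusted p under 0.05, against 9.25% of all genes. The median log2 difference was −0.001 for the targets and −0.016 for the regulators, beside −0.001 for all genes. In conditional nuclear HOM 6 of 51 targets and 0 of 36 regulators had an unadjusted p under 0.05, with medians of 0.06 and 0.041 beside −0.01 for all genes and 11.6% of genes under that p. Over the 9 comparisons the medians furthest above and below that of all genes were 0.082 for the targets in conditional cortex (35 of 52 above 0, 2 with an unadjusted p under 0.05, beside 3.08% of genes) and −0.075 for the regulators in germline synaptic libraries (7 of 36 above 0, 0 with an unadjusted p under 0.05, beside 11%).

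The fractions separated these genes where genotype did not. Synaptic and nuclear libraries of the same animals were compared with the animal as a block, over 9 WT animals of the germline line and 4 WT animals of the conditional line. In the germline line all 10 genes were called, 4 higher and 6 lower in synaptic RNA, where 62.8% of 21475 genes were called, 28.7% higher and 34.1% lower. In the conditional line 9 were called, 4 higher and 5 lower, beside 61.5% of 21577 genes, 28.6% higher and 32.9% lower. The HET animal with no Cre count enters this fit through the shared spread, and without it Bbc3 was again the 1 member not called (−0.24, edgeR adjusted p = 0.304). Without the animals of germline WT males 1 and 2 all 10 were called again, in the same directions. In that setting 15540 of 20918 genes were called, 6903 of them higher, a larger share than with these animals. An unadjusted p under 0.05 was reached by the same numbers of members, 10 and 9, and by 66.6% and 65.1% of genes. The share called was thus high over all genes, and the members are described below by the direction of each.

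Trp53 and Mdm2, the regulator and its brake, were both lower in synaptic RNA. In the conditional WT animals Trp53 was 25.4, 24.3, 21.4 and 23.8 CPM in nuclear and 9.83, 9.74, 11.6 and 9.64 CPM in synaptic libraries. The groups did not come near each other, and the fitted log2 difference was −0.65 (SE 0.127, edgeR adjusted p = 0.000166). Mdm2 went from 83.5, 106, 81.8 and 104 CPM in nuclear to 35.8, 31.1, 33.6 and 33.4 CPM in synaptic libraries, a fitted difference of −0.91 (edgeR adjusted p = 4.35e-06). In the germline line nuclear WT libraries had a lowest, median and highest Mdm2 of 68.7, 82.2 and 117 CPM, and synaptic WT libraries 23.8, 28.2 and 75.8 CPM. WT males 1 and 2 were at 68.0 and 75.8 CPM in synaptic RNA, and the other 9 lay from 23.8 to 29.7 CPM. Only the library at 75.8 CPM reached the nuclear range. The fitted Mdm2 difference was −0.89 (SE 0.106, edgeR adjusted p = 5.1e-06), and −1.05 without the animals of WT males 1 and 2. The Trp53 difference in the germline line was −0.58 (SE 0.174, edgeR adjusted p = 0.00868), and −0.88 without them, more than 1.5 times as large.

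The death genes and Cdkn1a were lower in synaptic RNA as well. Bax in conditional WT animals was 18.3, 15.3, 14.7 and 19.7 CPM in nuclear and 6.37, 5.55, 6.02 and 6.30 CPM in synaptic libraries, with a fitted log2 difference of −0.91 (edgeR adjusted p = 1.65e-05). In the germline line the Bax difference was −0.58 (edgeR adjusted p = 0.000904), and −0.60 without the animals of WT males 1 and 2. Bbc3 was called lower in the germline line (−0.81, edgeR adjusted p = 5.58e-05) and was not called in the conditional line (−0.24, edgeR adjusted p = 0.306). Pmaip1 was lower by −0.99 in the germline line (edgeR adjusted p = 0.00404) and by −0.58 in the conditional line (edgeR adjusted p = 0.0303). Cdkn1a in conditional WT animals was 22.8, 35.1, 19.4 and 35.5 CPM in nuclear and 16.9, 12.4, 9.45 and 12.3 CPM in synaptic libraries. It fell in each of the 4 animals, with a fitted difference of −0.56 (edgeR adjusted p = 0.00812), and the germline value was −0.67 (edgeR adjusted p = 0.000683). Without the same 2 animals the germline values of Bbc3, Pmaip1 and Cdkn1a were −0.82, −1.04 and −0.61. In the conditional line the calls of Cdkn1a and Pmaip1 were lost when single WT animals were left out, with adjusted p of 0.062 and 0.0744 for Cdkn1a and of 0.0578 to 0.105 for Pmaip1.

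Ccng1, Zmat3, Sesn2 and Phlda3 went the other way, with calls that depended on the scaling. Their fitted log2 differences were 0.69, 0.67, 0.50 and 0.59 in the germline line (edgeR adjusted p = 0.000274, 1.56e-05, 0.00216 and 0.0146). Without the animals of WT males 1 and 2 the germline values were 0.89, 0.73, 0.62 and 0.91, and that of Phlda3 was more than 1.5 times as large. They were 0.49, 0.37, 0.83 and 0.73 in conditional WT animals (edgeR adjusted p = 0.00265, 0.0156, 7.88e-05 and 0.000128). In CPM the differences were smaller. Ccng1 in conditional WT animals was 92.9, 82.5, 80.8 and 75.6 CPM in nuclear and 78.3, 89.9, 65.7 and 80.4 CPM in synaptic libraries. Ccng1 was higher in synaptic RNA in 2 of these 4 animals and in 7 of 9 germline WT animals. Sesn2 was 12, 10.4, 12.4 and 7.77 CPM in nuclear and 12.5, 14.4, 13.1 and 10.4 CPM in synaptic libraries. It was higher in 4 of 4, as was Phlda3. Zmat3 was 109, 103, 129.6 and 103 CPM in nuclear and 103, 94.1, 100.1 and 89.2 CPM in synaptic libraries. It was higher in 0 of these 4 and in 8 of 9 germline WT animals. Trimmed-mean (TMM) scaling raises synaptic libraries against nuclear ones: the median log2 difference of all genes was −0.14 with it and −0.64 without it in the germline line, and −0.15 and −0.71 in the conditional line. Without scaling beyond library size 62.6% of genes were called in the germline line, 9.52% higher and 53% lower, and 64.9% in the conditional line, 11% higher and 53.9% lower. None of these 4 genes was then called in either line. Ccng1 then had 0.18 and −0.08, Zmat3 0.16 and −0.20, Sesn2 −0.003 and 0.26, and Phlda3 0.07 and 0.17 in the germline and conditional lines. Leaving out the animals of WT males 1 and 2 as well, Ccng1 (0.32, edgeR adjusted p = 0.00209) and Phlda3 (0.33, edgeR adjusted p = 0.0283) were called higher in the germline line, where 14.3% of genes were called higher and 58.9% lower. Zmat3 (0.15, edgeR adjusted p = 0.145) and Sesn2 (0.04, edgeR adjusted p = 0.73) were not. The other 6 genes were lower under both scalings, and Bbc3 in the conditional line was called without scaling (−0.805, edgeR adjusted p = 0.00177).

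A comparison between genes within an animal does not depend on the scaling. The synaptic minus nuclear log2 CPM of each gene was therefore set against that of Mdm2, a reference chosen after the values were seen, so the values are a description with no test. Mdm2 itself had the lowest or nearly the lowest such difference in every group, so counts of animals above it partly follow from that choice. In germline WT animals Ccng1 stood 1.58 ± 0.77 above Mdm2 (SD, n = 9; above it in 9 of 9 animals), Zmat3 1.56 ± 0.54 (9 of 9), Phlda3 1.47 ± 1.03 (7 of 9) and Sesn2 1.4 ± 0.64 (8 of 9). In conditional WT animals the values were 1.4 for Ccng1, 1.28 for Zmat3, 1.65 for Phlda3 and 1.74 for Sesn2, each above Mdm2 in 4 of 4 animals. Without the animals of WT males 1 and 2 the germline values were 1.95 ± 0.26, 1.77 ± 0.36, 1.96 ± 0.41 and 1.67 ± 0.31 (SD, n = 7), each above Mdm2 in 7 of 7. In the mutants all 4 genes also stood above Mdm2, in 5 of 5 germline HET, 5 of 5 conditional HET (4 of 4 without the animal that had no Cre count) and 3 of 3 conditional HOM animals, in an order that differed between groups. The other members stood closer to Mdm2. In germline WT animals their means ran from −0.11 (Pmaip1) to 0.32 (Trp53), or from −0.03 to 0.44 without the 2 animals, and in conditional WT animals Bbc3 (0.67) and Cdkn1a (0.35) were above Mdm2 in 4 of 4.

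**Figure D4:**
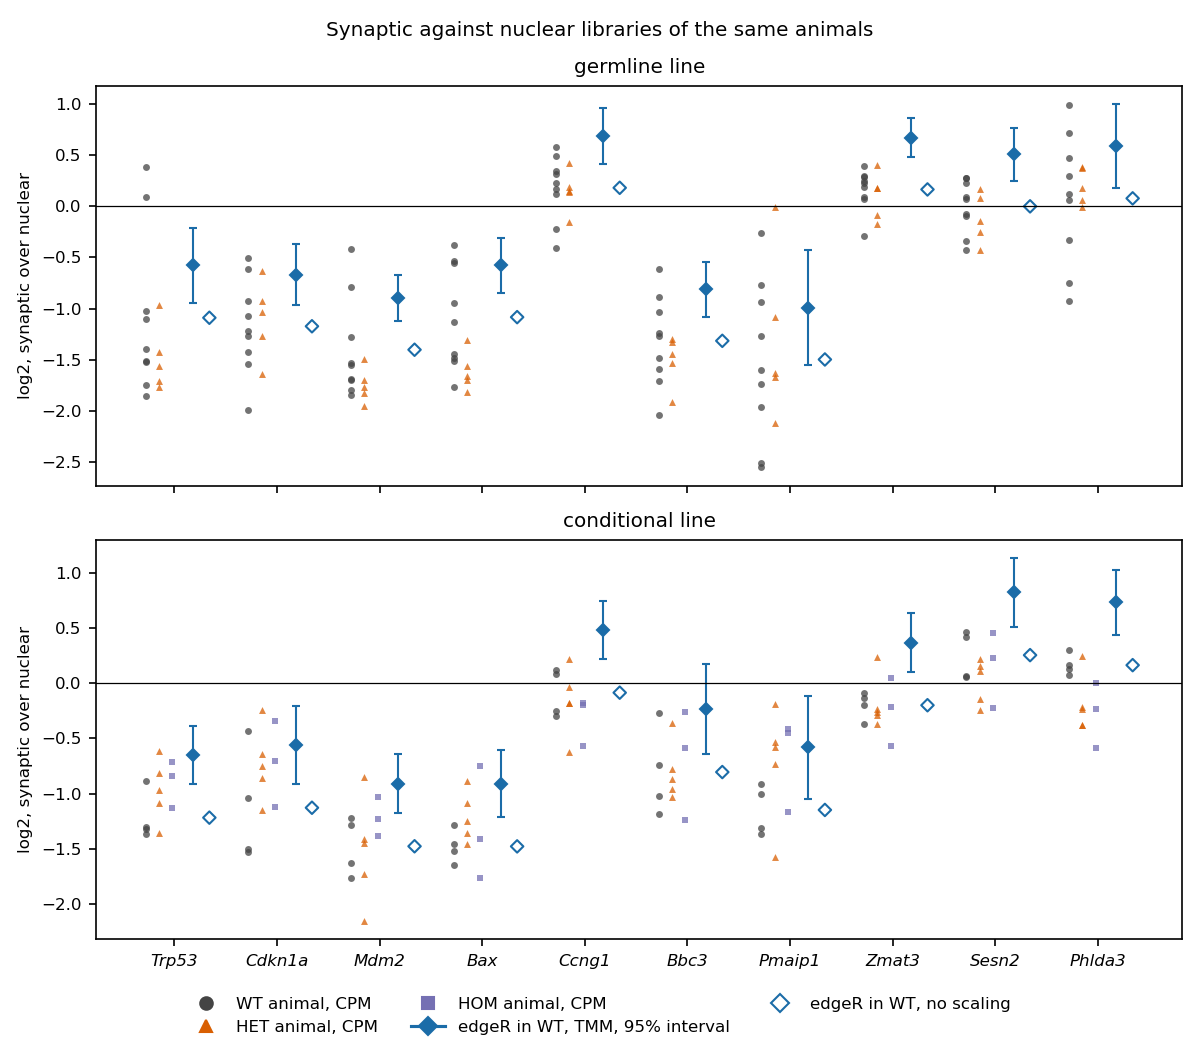
Synaptic over nuclear level of the 10 genes on the log2 scale, in the germline line (upper panel) and the conditional line (lower panel); small points are single animals in CPM by genotype, filled diamonds are the edgeR values in WT with TMM scaling and 95% intervals, and open diamonds are those without scaling. Trp53, Cdkn1a, Mdm2, Bax, Bbc3 and Pmaip1 lie below 0 under both scalings, whereas Ccng1, Zmat3, Sesn2 and Phlda3 lie above 0 with TMM and between −0.20 and 0.26 without it.

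Other RNAs moved between the fractions at the same time. All 17 endothelial and mural markers were lower in synaptic RNA in both lines, with median log2 differences of −3.92 and −3.10, and 11 of 12 nuclear-retained RNAs were lower, with medians of −2.75 and −2.95. The endothelial and mural markers summed to 1647 to 4094 CPM in germline nuclear WT libraries and to 104 to 981 CPM in synaptic ones, or 104 to 157 CPM without males 1 and 2. In the conditional line they summed to 1027 to 2587 CPM in nuclear and to 126 to 164 CPM in synaptic WT libraries. No marker of this list was at 0 in all libraries of a group. Of 9 meningeal fibroblast markers 8 and 3 were called lower and 0 higher in the germline and conditional lines (medians −1.04 and −0.309). Of the blood markers tested, 4 of 5 and 4 of 6 were called lower and 0 higher (medians −0.931 and −0.582). Markers of several other cells went the other way: all 10 microglial markers (medians 0.83 and 1.259) and all 8 interneuron markers (1.325 and 1.451) were called higher in synaptic RNA in both lines. So were 9 and 8 of 10 excitatory neuron markers (0.681 and 0.76), 8 and 7 of 10 astrocyte markers (0.599 and 0.485) and 8 and 9 of 12 oligodendrocyte and myelin markers (0.618 and 0.918). The part of these cells and RNAs in the values of the 10 genes was not tested. Mitochondrially encoded RNA took a median of 3.75% of counts in germline nuclear and 7.89% in germline synaptic WT libraries.

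Cytosolic RNA gave a further view of the same genes. Per kilobase, the order in germline cytosolic WT libraries began with Ccng1 at 40 ± 3.98, Zmat3 at 17.2 ± 2.48, Mdm2 at 13.7 ± 2.27 and Phlda3 at 13.6 ± 1.83 CPM per kb (SD, n = 5). In nuclear WT libraries it began with Bax at 23.1 ± 5.28, Mdm2 at 16.8 ± 2.58 and Ccng1 at 15.1 ± 1.9 CPM per kb (SD, n = 12). Ccng1 thus led the cytosolic order and Bax the nuclear one. In CPM, Ccng1 was 156, 143, 118, 145 and 140.1 in the cytosolic WT libraries and 37.1, 52.5 and 62 at the lowest, median and highest nuclear ones. Zmat3 was 241, 193, 165, 183 and 204 CPM in cytosolic WT libraries and 71.8, 96.4 and 114 CPM in nuclear ones. Bax went the other way, with 12.9 to 19.4 CPM in cytosolic and 26.6 to 57.1 CPM in nuclear WT libraries. The ranges of these 3 genes did not overlap between the extracts. Trp53 did not overlap either, with 17.9 to 24.3 CPM in cytosolic and 25.7 to 41.7 CPM in nuclear WT libraries. Sesn2 (14.2 to 16.1 and 7.61 to 13.3 CPM) and Phlda3 (17.8 to 25.3 and 9.3 to 17.4 CPM) were higher in cytosolic libraries without overlap. Cdkn1a, Mdm2, Bbc3 and Pmaip1 overlapped. Of 20811 genes 15% had cytosolic values all above and 28.6% all below the nuclear ones. Cytosolic and nuclear libraries were sequenced on different instruments, per the labels, so these levels are given side by side with no test.

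Genotype did not change the difference between fractions detectably. The interaction of fraction and genotype called 0 of the 10 genes in germline HET, beside 0% of 21475 genes, and 0 of the 10 in conditional HOM, beside 0% of 21577 genes. In germline HET the value furthest from 0 was that of Bax, −0.42 (unadjusted p = 0.06, edgeR adjusted p = 0.459), and without the animals of WT males 1 and 2 the 10 values ran from −0.402 to 0.345 with none called. In conditional HOM Phlda3 had −0.48 (unadjusted p = 0.0338, edgeR adjusted p = 0.892), where 4.78% of genes had an unadjusted p under 0.05.

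The further pathway genes were called in both directions between fractions, with WT males 1 and 2 included. Of 51 further p53 targets tested, 10 were called higher and 22 lower in synaptic RNA in the germline line and 14 higher and 18 lower in the conditional line. All 32 called of 51 in each line stand beside 62.8% and 61.5% of all genes, so the share called is near the background. Without scaling the counts were 1 higher and 37 lower, and 1 higher and 32 lower, beside 9.52% and 53%, and 11% and 53.9%, of all genes. The median log2 difference with scaling was −0.271 and 0.006, beside −0.14 and −0.15 for all genes. Among the targets with an average log2 CPM of at least 1 the furthest down in the germline line were the death receptor gene Fas (−4.04), the RNA phosphatase gene Dusp11 (−2.40) and the DNA repair gene Ddb2 (−2.09). The furthest up were Rprm, a cell cycle inhibitor (1.10), Abhd4 (0.71) and Rap2b (0.70). By the same limit, in the conditional line Dusp11 (−2.80), Ddb2 (−2.24) and Trim21 (−1.67) were furthest down and Rprm (0.98), Rap2b (0.72) and Cd82 (0.62) furthest up. Fas (−3.14) was called there as well, lies under the limit and is named after its value was seen. Rprm was also higher without scaling, by 0.59 (edgeR adjusted p = 0.00544) and 0.41 (edgeR adjusted p = 0.00471).

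Among 36 regulators tested, 14 were called higher and 8 lower in the germline line and 11 higher and 9 lower in the conditional line, or 3 and 22, and 0 and 27, without scaling. The shares of all genes given for the targets are the background here too, and the median log2 differences with scaling were 0.099 and 0.074. Mdm4, the partner of MDM2 in restraining p53, was lower by −1.80 and −2.04, and the checkpoint kinase genes Chek1 (−1.72 and −2.47) and Atr (−1.34 and −1.37) were lower too. Hipk2, a kinase that phosphorylates p53, was furthest up in both lines by the same limit (1.85 and 1.17). Without scaling Hipk2 was 1.34 in germline animals (edgeR adjusted p = 0.000602) and 0.60 in conditional ones (edgeR adjusted p = 0.106). Setd7 (0.82) and Rpl11 (0.79) were also called higher in the germline line, and Prmt5 (0.63) in the conditional line. Without scaling they were at 0.31, 0.28 and 0.06.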

How the data were processed

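The authors deposited 6 tables of gene counts, which were used as deposited. The submitters' processing notes name STAR 2.5.4b, featureCounts 2.0.0 and GRCm38 (mm10), and the conditional cortex table names featureCounts 1.6.0 and Ensembl 95 with a Cre sequence, per the file headers. No pair or strand option is given there. Of the counts between 10 and 200, 56.3% to 74.7% per library were even, so both mates of a pair were probably counted, and counting intervals would be too narrow. Cdkn1a and Bax share exon bases with AC167363.2 and Gm45808, and their counts are uncertain to that extent. Of 127 labelled libraries 123 were used, and 4 cytosolic libraries were not analysed here. No 2 replicates agreed within sampling noise. Titles number the libraries of a group as biological replicates, and library names hold a number that was read as the animal. They do not state outright that each replicate is a separate mouse, so p-values measure the spread between libraries.

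Counts were fitted over all genes with edgeR 4.0.16 (R 4.3.3): TMM scaling, filterByExpr, quasi-likelihood F test, p adjusted by Benjamini-Hochberg and called under 0.05. Each genotype fit had a term for sex, and those of germline cortex, nuclear and synaptic libraries one for batch. WT, HET and HOM of a conditional fraction shared 1 fit. Synaptic and nuclear libraries were compared with the animal as a block, leaving out animal 29M, whose 2 libraries carry different sex markers, and animal 91, labelled HET in 1 fraction and HOM in the other. In the genotype fits, group means and Chd8 permutation tests animal 91 was kept under its labels, as nuclear HET female 4 and synaptic HOM female 2. No member was called without it. CPM are counts divided by the library total, with no scaling. The scripts were tested on simulated counts. DESeq2 1.42.0, other scaling and filters, a replicate block and leaving out libraries were alternatives. GENCODE M21 gave exon lengths, and RefSeq the promoter windows.

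Replicate numbers paired samples by deviation only between conditional nuclear HET and WT, where all 4 pairs of the same sex and number had r of 0.17 to 0.24, above the limit of 0.1. That pairing comes from these correlations and not from the labels, and blocking called 0 members, as without it. The members and lists were chosen with earlier results of these data known. Named besides the members were Chd8, the 3 genes of each p53 list furthest from 0 each way between fractions with an adjusted p under 0.05 and average log2 CPM of at least 1, and the 5 genes most like Cdkn1a and Ccng1. A gene that this rule names is not reported here.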

Additional observations from a re-analysis of the deposited data

Results flagged for a closer look

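In 9 of 110 sets of a gene in a group of 4 to 10 libraries, 1 library lay far from the others by Dixon's test, and chance gives about 1 in 20. In the germline cytosolic HET group the library male 2 had 24.4 CPM of Trp53 against 17.6 to 20.1 CPM in the others, and 76.2 CPM of Mdm2 against 60.3 to 66.5 CPM. In the germline synaptic HET group the library female 3 had 69.1 CPM of Ccng1 against 51.3 to 57.2 CPM, 83.2 CPM of Zmat3 against 101 to 109.9 CPM, and 18.6 CPM of Phlda3 against 11.1 to 14.2 CPM. Cdkn1a was 54.4 CPM in the germline nuclear library labelled HET male 1, against 18.8 to 34.7 CPM in the others. Trp53 was 11.6 CPM in the conditional synaptic WT library female 1, against 9.64 to 9.83 CPM. In conditional cortex Pmaip1 was 3.57 CPM in flox male 1, against 1.57 to 2.47 CPM, and 1.04 CPM in floxCre male 2, against 1.91 to 2.41 CPM.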

How the results depend on the processing

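In the 9 genotype comparisons 0 of the 10 genes were called under every alternative run: DESeq2, size-factor scaling, no scaling, no filter, no covariates, a replicate block, single batches, and leaving out each replicate (0 to 0) or the libraries that stood apart. The smallest adjusted p among these was 0.198, for Zmat3 in cytosolic libraries with a replicate block. Leaving out scaling, an alternative chosen after the data were seen, lowered the count of members called between germline fractions from 10 to 6. With the animals of WT males 1 and 2 left out as well it was 8. Leaving out scaling alone turned the direction of Sesn2 in the germline line (−0.003) and of Ccng1 (−0.084) and Zmat3 (−0.198) in the conditional line. Leaving out 1 animal gave 10 to 10 members in the germline line and 6 to 9 in the conditional line, where Zmat3 also lost its call without WT animals 49 (adjusted p = 0.0742) or 55 (0.0751). Without the animal block only conditional Cdkn1a lost its call (−0.562, adjusted p = 0.0594).

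Counts over all genes moved more. In germline cortex 57 genes became 97 with DESeq2, 20 without a filter, 36 with the replicate block, 0 in batch CHD80456 and 1 in batch CHD807 alone, and 31 to 81 on leaving out a replicate. In germline nuclear libraries 3 became 18 with DESeq2, 284 without a filter, 1 without scaling and 0 with the replicate block, with genotype alone, with 6 batch levels, or without 2 libraries whose Xist and Y-linked counts do not match their labelled sex. In the other comparisons 0 became 17, 4, 4, 3, 27 and 2 with DESeq2 (germline synaptic, cytosolic, conditional cortex, nuclear HET, nuclear HOM, synaptic HOM), and 276, 21, 64, 346, 20 and 97 without a filter (germline synaptic, cytosolic, conditional nuclear HET and HOM, synaptic HET and HOM). It became 142 in germline synaptic libraries without WT males 1 and 2, and 63 in cytosolic ones with the replicate block. Pairs of the same number had r over 0.1 in 10 of 14, 5 of 9, 1 of 7 and 1 of 3 cases in germline cortex, nuclear, synaptic and cytosolic libraries, in 2 of 6 in conditional cortex, 2 of 3 in nuclear HOM, and 2 of 4 and 3 of 4 in synaptic HET and HOM. The block changed no call of the 10 genes. Pmaip1, with the fewest counts, has the least precise values.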
